A study of Mus musculus with 24 samples.

Results

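The proteasome genes of mouse skeletal muscle were described in 24 arrays. They were the genes whose single annotated symbol begins with Psma, Psmb, Psmc, Psmd or Psme followed by a digit, each read by its probe set with the highest mean. This rule found 45 of the 19938 genes with 1 symbol, and all 45 were among the 15999 genes kept after removal of dim genes. Of these, 44 lay above the dim limit of the array, its 30th percentile over all probe sets, on all 24 arrays, and Psma8 did so on 18. They comprised 31 constitutive subunits of the particle, 4 inducible or thymic beta subunits, 3 assembly chaperones, 4 activators and 3 further genes caught by the symbol, the testis subunit Psma8 and 2 genes of other function, Psmc3ip and Psme3ip1. Constitutive subunits without such a symbol, such as Sem1, are not among the 31. The arrays came from quadriceps and soleus of male mice aged 40 to 42 days, on a mixed background of C57BL/6J and, as the labels spell it, 1219S6/SvEvTac. Control and conditional knockout (cKO) mice alike carried 2 conditional alleles of nebulin, the gene of a giant thin filament protein of the sarcomere. The cKO mice had in addition 1 copy of an MCK-Cre transgene, in which the muscle creatine kinase promoter drives Cre recombinase in muscle fibres, and the controls had none. Both genotypes were sampled in both muscles, which makes 4 groups, and the 6 arrays of a group are separate biological replicates by the submitters' design text. By the submitters' account, the loss of nebulin made the quadriceps markedly smaller, and the size of the soleus did not differ significantly.

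The proteasome degrades proteins that carry chains of ubiquitin. Its core particle is a barrel of outer alpha rings, which gate the entrance, and inner beta rings, of which Psmb5, Psmb6 and Psmb7 hold the proteolytic sites. The regulatory particle on its end binds ubiquitin, removes it and unfolds the substrate with a ring of ATPases (Psmc genes), helped by non-ATPase subunits (Psmd genes). Inducible subunits replace the proteolytic ones under interferon, and the Psme activators open the barrel in place of the regulatory particle. In skeletal muscle the proteasome removes sarcomere proteins in growth, repair and wasting.

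All levels and changes below are on the log2 scale of the deposited intensities, and a change is called higher or lower where limma's adjusted p over the 15999 genes was under 0.05. Nebulin (Neb) fell in the cKO of both muscles, from a mean of 12.29 to 10.84 in quadriceps and from 12.38 to 11.24 in soleus, with no overlap between arrays. Pairs of arrays of a group correlated between 0.963 and 0.993 across genes. The arrays of quadriceps control 4 and 6 and soleus control 1 had the lowest quality weights in limma, 0.207, 0.389 and 0.394, against 0.763 to 1.77 for the others, so counts without these 3 arrays are given beside the main ones. Muscle fibre markers were bright in every group, with summed intensities over 5 genes of 26323 to 33709. Of 7 lymphocyte markers found, Cd3g, Ms4a1 and Cd79a lay below the dim limit on all 24 arrays, and Nkg7 lay above it on 11. The others, Cd3e, Cd4 and Cd8a, lay above it on all 24, with group means of 4.03 to 4.88.

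The constitutive subunits were lowest in soleus controls. Of the 31 genes, 29 had their lowest group mean in soleus controls, the exceptions being Psmb2 and Psmc6. The highest mean was in quadriceps cKO for 19, in quadriceps controls for 8 and in soleus cKO for 4. Averaged over the 31 genes, the level was 9.12 ± 0.08 in quadriceps controls, 9.19 ± 0.06 in quadriceps cKO, 8.72 ± 0.07 in soleus controls and 9.09 ± 0.06 in soleus cKO (SD, n = 6 each). The soleus control arrays ranged from 8.66 to 8.83 in this average and lay below all 18 other arrays, the lowest of which read 9.01. Soleus cKO arrays ranged from 9.03 to 9.17 and overlapped both quadriceps groups.

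**Figure D1:**
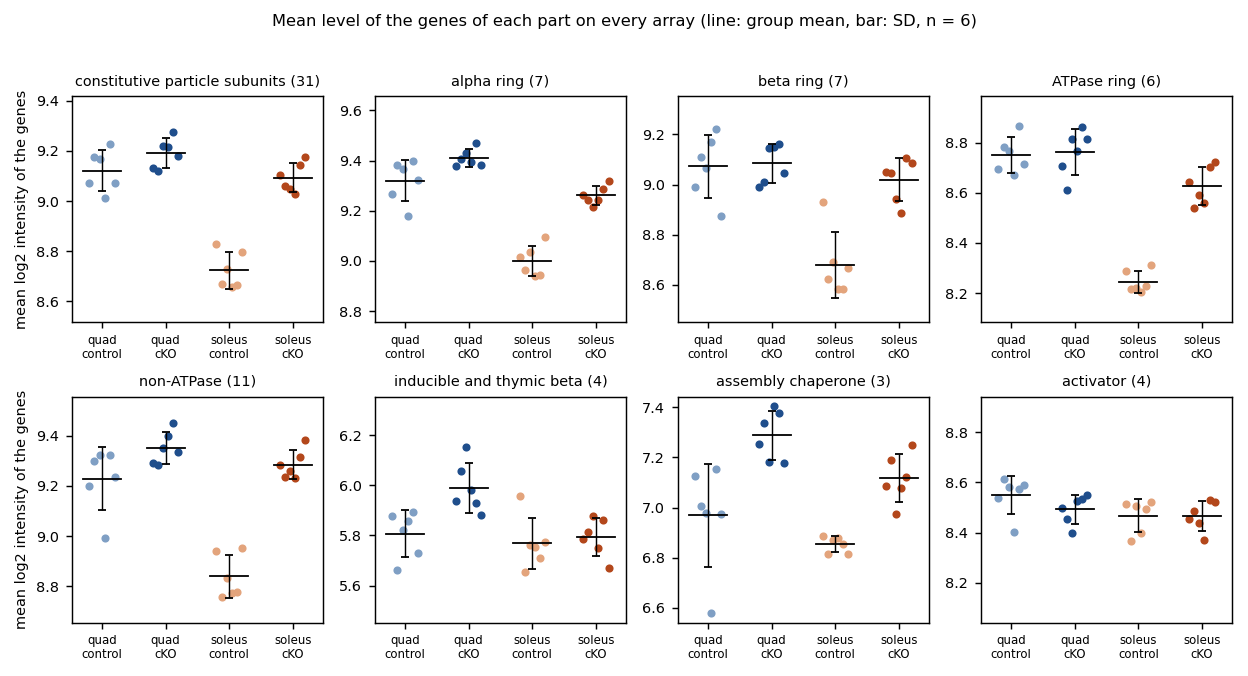
Mean log2 intensity over the genes of each part of the proteasome, 1 point per array, with the group mean (line) and SD (bar) of 6 arrays. In the panel of the 31 constitutive subunits the soleus control arrays lie between 8.66 and 8.83 and all others at 9.01 or above, whereas the 4 activators have group means of 8.47 to 8.55.

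The soleus comparison asked which proteasome genes differ in the muscle whose size was not significantly lower. In soleus cKO, 25 of the 45 genes rose and 1 fell, while 13.2% and 9.94% of all genes tested were called higher and lower. Their median change was 0.28, beside -0.02 over all genes. Among the constitutive subunits 22 of 31 rose and none fell, with a median of 0.36, and at an unadjusted p under 0.05 limma gave 25 higher and 0 lower. In 19 of these 31 genes every cKO array read above every control array, which held for 7.82% of all genes, and in none every cKO array below (4.96% of all genes). By part, the genes that rose were 2 of 7 in the alpha ring, 6 of 7 in the beta ring, 5 of 6 ATPases and 9 of 11 non-ATPase subunits. In whole tissue, fewer cells of a type and less RNA per cell cannot be told apart. Left out together, the 3 arrays of low weight changed the constitutive count to 25 higher and 0 lower, and over all settings tried it lay between 20 and 25.

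The largest rises in soleus were in subunits of the regulatory particle. Psmd4 (Rpn10), a receptor for ubiquitin chains, read 7.67, 7.74 and 8.26 in soleus controls (lowest, median and highest of 6 arrays) and 8.56, 8.64 and 8.77 in cKO. The groups did not overlap, and the change was 0.78 (SE 0.10, 1.71-fold, adjusted p = 8.19e-07). Psmc4 (Rpt3), an ATPase of the unfolding ring, read 7.66, 7.80 and 8.16 in controls and 8.38, 8.63 and 8.75 in cKO, again apart. Its change was 0.77 (SE 0.09, 1.71-fold, adjusted p = 5.04e-07). Psmd11 (Rpn6), a lid subunit that holds the regulatory to the core particle, read 9.24, 9.30 and 9.55 in controls and 10.02, 10.09 and 10.26 in cKO. It rose by 0.77 (SE 0.07, 1.70-fold, adjusted p = 1.16e-08) with no overlap, the smallest adjusted p of all 45 genes in soleus. On mm10, Psmd4 lies on chromosome 3 (95032688 to 95042614), Psmc4 on chromosome 7 (28041702 to 28050092) and Psmd11 on chromosome 11 (80428615 to 80473248). The highest control array of Psmd4 and of Psmc4 was soleus control 1, 1 of the 3 with low weight.

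Other constitutive subunits rose less. Psmd8 (Rpn12), a lid subunit, rose by 0.62 and Psmd14 (Rpn11), the enzyme that cuts ubiquitin from the substrate, by 0.56. In the outer ring, Psma7 (alpha4) read 8.52, 8.63 and 9.04 in controls and 9.13, 9.36 and 9.48 in cKO, without overlap, and rose by 0.63 (SE 0.09, adjusted p = 4.43e-06). Psma5 (alpha5) rose by 0.53. The other alpha subunits were not called, with changes from 0.06 (Psma3) to 0.27 (Psma4, adjusted p = 0.0565, and 0.0473 with the replicate number as a fixed block). Among them, Psma2 (0.07) and Psma6 (0.18) had every cKO array above every control array. In the inner ring the 6 genes that rose ranged from 0.25 (Psmb7) to 0.48 (Psmb3), and only Psmb1 had groups apart. The remaining member of that ring, Psmb2, changed by 0.16 (adjusted p = 0.18). The ATPases Psmc1, Psmc2, Psmc3 and Psmc5 rose by 0.29 to 0.43, and Psmc6 changed by -0.02 (adjusted p = 0.897). Psmd6 and Psmd12 were the non-ATPase subunits not called, at 0.13 and 0.20, and the other members rose by 0.31 (Psmd2) to 0.78 (Psmd4). The calls of Psmb7 and Psmd7 were lost under 1 of 37 settings, a further quantile normalization, and those of the other constitutive subunits under none.

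**Figure D2:**
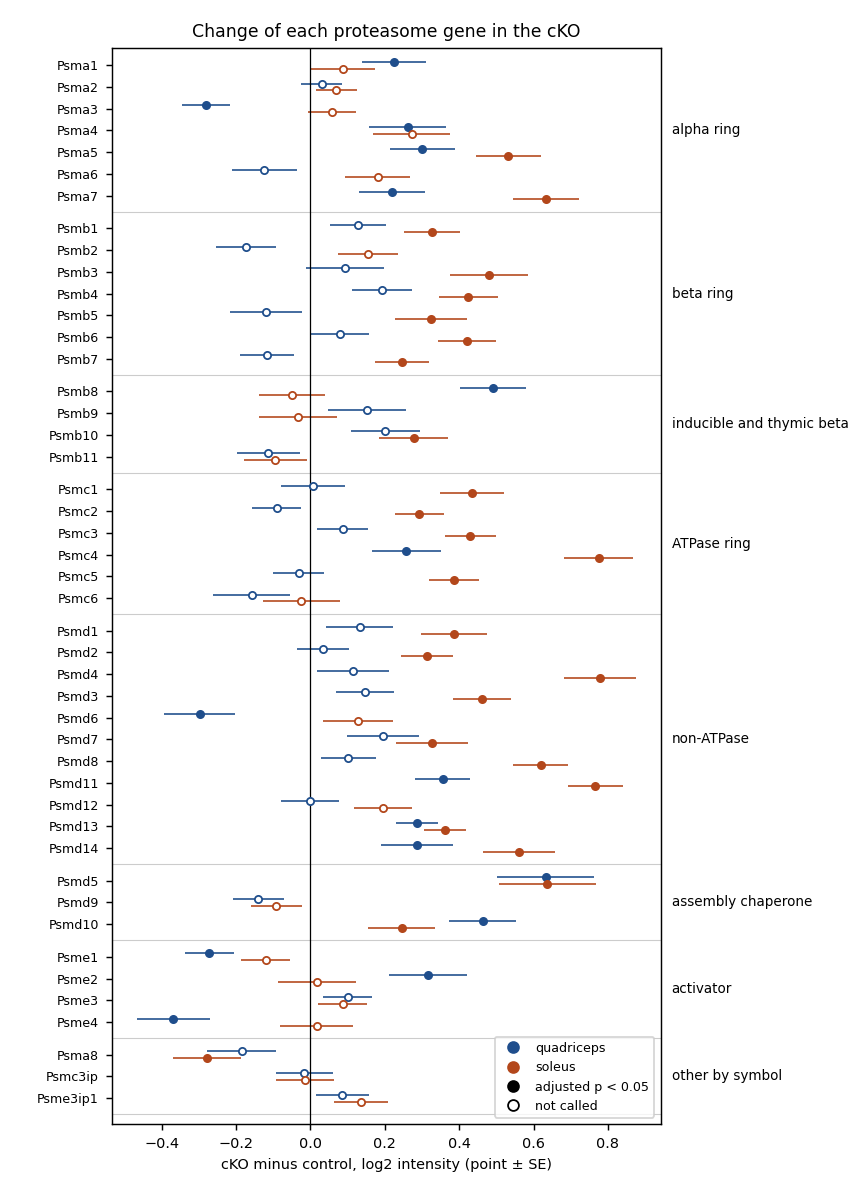
Change of each of the 45 proteasome genes in cKO against control (x axis, log2 intensity, point ± SE from limma, 6 arrays per group), by part of the particle, for quadriceps (blue) and soleus (red), filled where the adjusted p was under 0.05. Soleus points of the constitutive subunits run from -0.02 (Psmc6) to 0.78 (Psmd4), and quadriceps points from -0.30 (Psmd6) to 0.36 (Psmd11).

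In quadriceps, where the cKO muscle is smaller, fewer subunits were called and in both directions. Of the 45 genes 12 rose and 4 fell, with 22.3% of all genes called higher and 17.7% lower, so that the share of proteasome genes that rose, 26.7%, was near that of all genes. Their median change was 0.09, beside -0.01 over all genes. Constitutive subunits rose in 8 of 31 and fell in 2. Those that rose were Psma1, Psma4, Psma5, Psma7, Psmc4, Psmd11, Psmd13 and Psmd14, and those that fell were Psma3 and Psmd6. None of the 7 beta ring genes was called by limma, and at an unadjusted p under 0.05 there was 1 higher (Psmb4) and 1 lower (Psmb2). In 4 of the 31 constitutive genes the cKO arrays lay wholly above and in 1 wholly below the controls, which held for 10.1% and 6.06% of all genes.

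The quadriceps counts moved with the scaling and with single arrays. Of the proteasome genes called, 75% were higher as reported, 69.2% with arrays centred on their medians, 57.1% after a further quantile normalization and 40% with arrays centred on their 75th percentiles. No called gene turned its direction under these scalings. The 8 constitutive rises became 4 without quadriceps control 4, 4 without quadriceps cKO 4, 5 without cKO 2 or cKO 3, 3 without cKO 5, and 4 without the 3 arrays of low weight. Centred on 75th percentiles, 3 constitutive subunits rose and 5 fell. With only the arrays compared 4 rose and 2 fell, and with quality weights 5 rose and 2 fell. Psma7, Psma4, Psma1, Psmc4 and Psmd14 lost their calls in 26, 18, 10, 9 and 5 of 37 settings, Psme2 in 2, and the other 10 called genes in none. Psma7 lost it under both blocks (adjusted p = 0.0620 for the number and 0.0612 for the animal, against 0.0488 as reported).

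Psmd11 rose in quadriceps as in soleus. Its arrays read 9.44, 9.73 and 9.80 in quadriceps controls and 9.95, 10.02 and 10.24 in cKO, with no overlap, a change of 0.36 (SE 0.07, adjusted p = 0.000357). Psmd13 (Rpn9), a lid subunit, rose by 0.29 in quadriceps (adjusted p = 0.000239) and 0.36 in soleus, without overlap in either muscle. Psma5 rose by 0.30 in quadriceps, and its second probe set by 0.35. On the other side, Psma3 (alpha7) read 10.57, 10.74 and 10.87 in quadriceps controls and 10.40, 10.43 and 10.55 in cKO. The groups were apart, and the gene fell by 0.28 (SE 0.06, adjusted p = 0.00106), with -0.32 and -0.30 for its other 2 probe sets. Psmd6 (Rpn7), a lid subunit, read 8.996, 9.22 and 9.44 in controls and 8.77, 8.92 and 9.12 in cKO, so that the groups overlapped, and fell by 0.30 (SE 0.09, adjusted p = 0.0139). No proteasome gene was called in opposite directions in the 2 muscles.

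**Figure D3:**
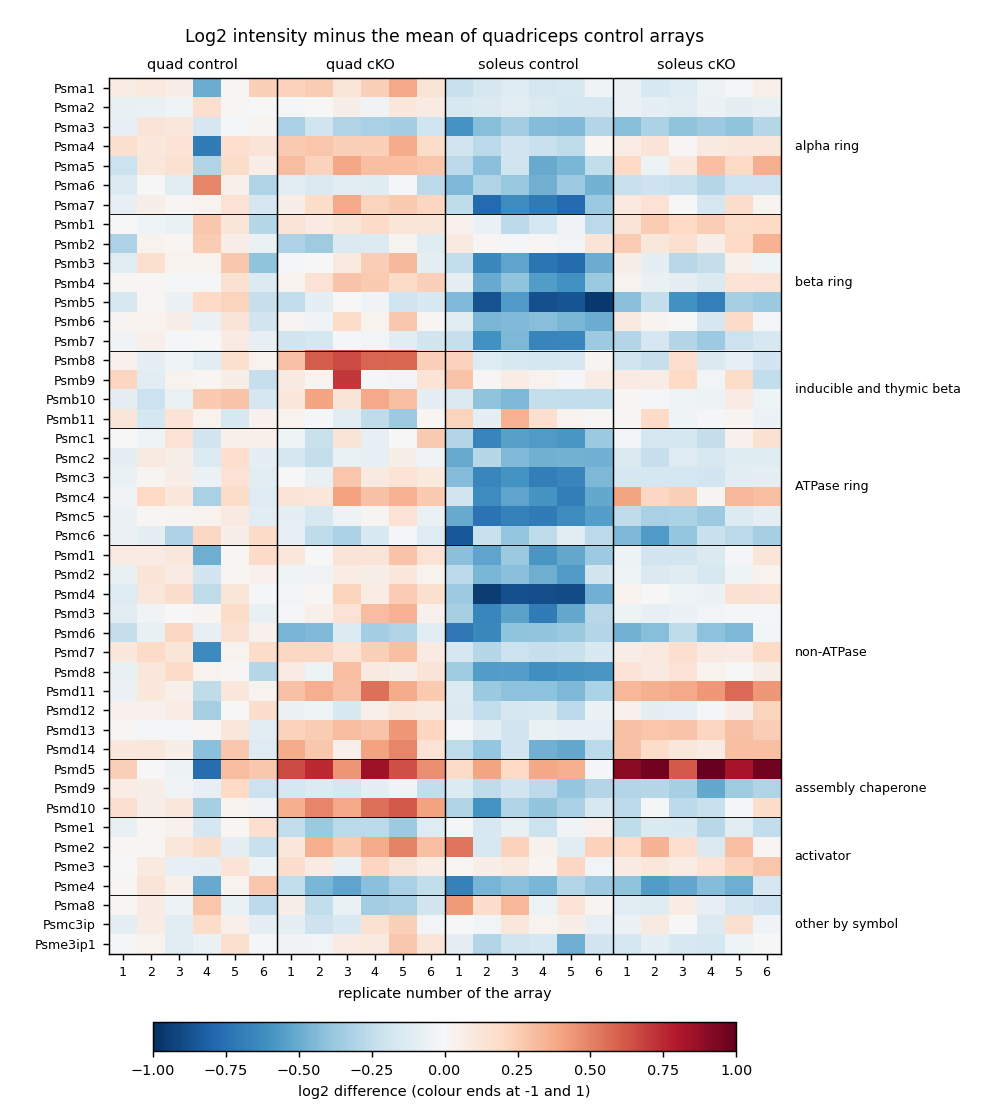
Log2 intensity of the 45 proteasome genes (rows, by part) on the 24 arrays (columns, by group and replicate number), each minus the mean of the quadriceps control arrays. Most constitutive subunits are below 0 throughout soleus controls, with group differences down to -0.77 (Psmb5), and quadriceps control 4 departs from its group in single genes such as Psma4 (9.28 against a group median of 10.11).

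The change in soleus was then set against the change in quadriceps. The difference was called for 15 of the 45 genes, 14 higher and 1 lower (soleus change minus quadriceps change), where 4.89% and 7.39% of all genes were called higher and lower. All 14 were constitutive subunits, 14 of 31, with a median difference of 0.33 over the 31 beside -0.00 over all genes, and at an unadjusted p under 0.05 limma gave 19 higher and 0 lower. Of the 14, 12 rose in soleus, while Psma3 and Psmd6 fell in quadriceps and were not called in soleus. The largest were Psmd4 (0.66, SE 0.14, adjusted p = 0.00205), Psmd8 (0.52, SE 0.11, adjusted p = 0.00178), Psmc4 (0.52, SE 0.13, adjusted p = 0.0103), Psmb5 (0.44, SE 0.14, adjusted p = 0.0335) and Psmc1 (0.43, SE 0.12, adjusted p = 0.0218). By part they were 5 of 6 ATPases, 4 of 11 non-ATPase subunits, 3 of 7 beta and 2 of 7 alpha subunits. Without the 3 arrays of low weight 23 of the 31 were called higher. The count was 12 after a further quantile normalization and 10 without quadriceps control 5, and over all settings tried it lay between 10 and 23. Under the 36 settings that give this comparison, Psmb6 lost its call in 20, Psmb5 in 12, Psmd6 in 9 and Psma7 in 7. With the animal as a random block, Psmb2 (0.33), Psmd2 (0.28) and Psmd3 (0.31) were called as well (adjusted p of 0.0300, 0.0308 and 0.0320, against 0.0593, 0.0628 and 0.0620 as reported). The proteolytic Psmb5 (beta5) read 7.83, 8.04 and 8.29 in quadriceps controls, 7.82, 7.94 and 8.06 in quadriceps cKO, 7.10, 7.19 and 7.62 in soleus controls and 7.38, 7.67 and 7.82 in soleus cKO. Soleus controls lay wholly below quadriceps controls, and soleus cKO overlapped soleus controls and, at the edge, near 7.82, quadriceps cKO.

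**Figure D4:**
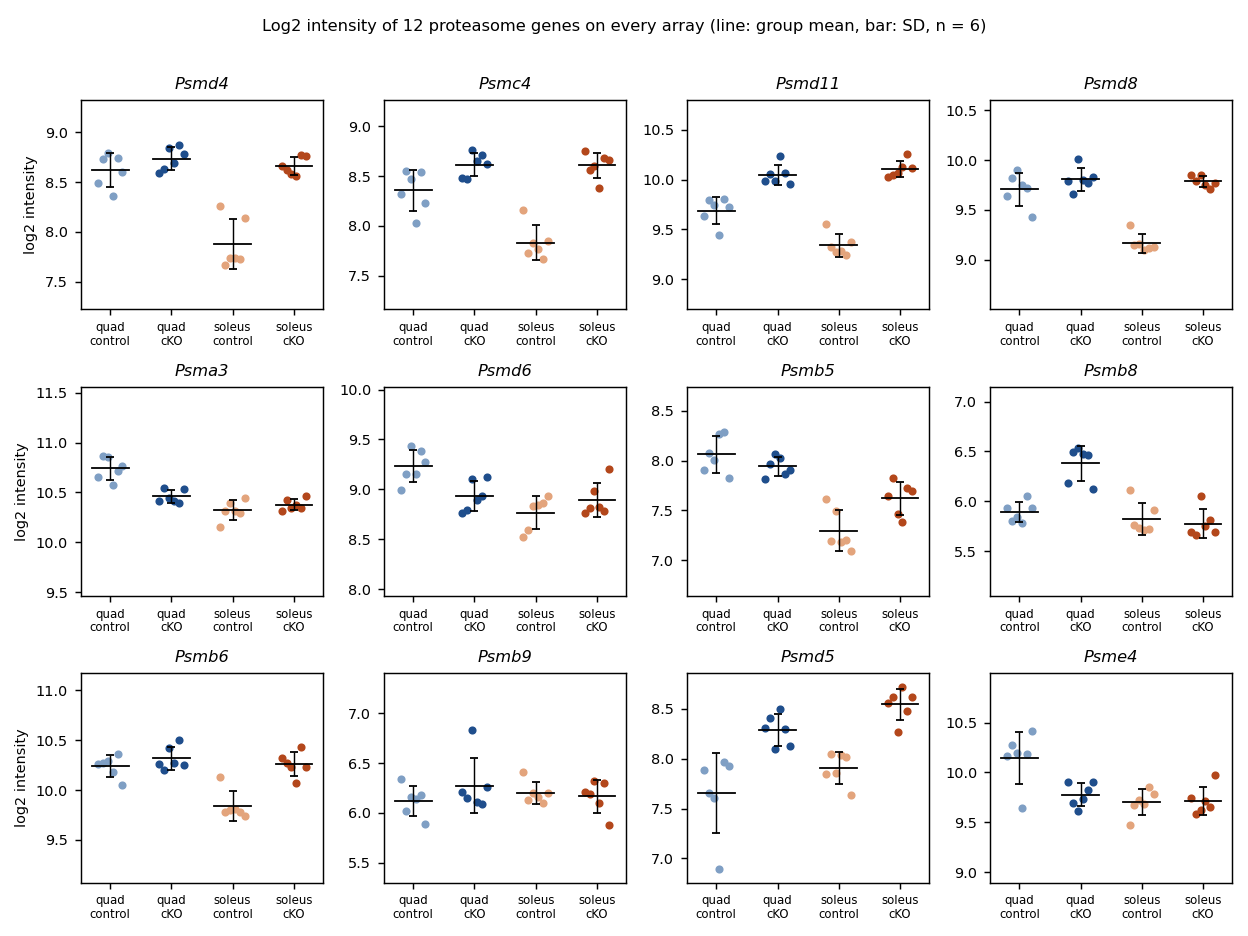
Log2 intensity of 12 proteasome genes on every array, with group mean (line) and SD (bar, n = 6), on axes of equal span. Psmd4 and Psmd8 have soleus control arrays wholly below those of the other groups (medians 7.74 and 9.14), Psmc4 and Psmd11 have their lowest group median there (7.80 and 9.30), Psmb8 has its highest in quadriceps cKO (6.47), and Psmd5 is higher in cKO of both muscles (8.31 and 8.59).

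The muscles were also compared within each genotype. These comparisons use the same soleus control and soleus cKO arrays as those above, so the values are given side by side only. Between controls, 29 of the 45 genes were lower in soleus and none higher, by limma and at an unadjusted p under 0.05 (31 lower, 0 higher), where 18.3% of all genes were called lower and 15.2% higher. Centring arrays on their medians moved the median of all genes from 0.03 to -0.07 and their shares to 26.1% lower and 7.48% higher. Relative to all genes the constitutive subunits were lower by either scaling, with a median of -0.42 as reported and -0.53 after centring. After a further quantile normalization, 7.14% of the called proteasome genes were higher. Of the 31 constitutive subunits 24 were lower and 14 did not overlap, against 7.73% of all genes apart in that direction. Without the 3 arrays of low weight 27 of the 31 were lower, with a median of -0.49. The largest differences were in Psmb5 (-0.77), Psmd4 (-0.74), the ATPase Psmc5 (Rpt6, -0.63) and Psma7 (-0.59). In Psmc5 the arrays read 8.21, 8.35 and 8.41 in quadriceps and 7.58, 7.67 and 7.82 in soleus, and Psma7 read 9.13, 9.32 and 9.44 in quadriceps against at most 9.04 in soleus. Both genes were apart between the control muscles.

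Between the cKO muscles 8 of the 45 genes were lower in soleus and 1 was higher, where 16.9% and 11.9% of all genes were called lower and higher. The constitutive subunits had a median of -0.10, with 4 of 31 lower (Psma1, Psmb5, Psmc3 and Psmc5) and Psmb2 higher. Psmb2 (beta4), a structural subunit, read 8.08, 8.29 and 8.46 in quadriceps cKO and 8.49, 8.61 and 8.78 in soleus cKO, apart with a difference of 0.36 (SE 0.08, adjusted p = 0.00175). Psma1 (alpha6) read 9.57, 9.68 and 9.83 in quadriceps cKO and 9.30, 9.40 and 9.50 in soleus cKO, a difference of -0.28 with no overlap. Of all genes, 5.33% lay wholly higher and 10.6% wholly lower in soleus cKO. Of the called genes 11.1% were higher as reported, 6.67% with arrays centred on medians, 60% with the 75th percentile and 50% after quantile normalization. The constitutive count of 4 lower became 10 with quality weights, 9 with arrays centred on medians, 9 with only the arrays compared, 8 without the 3 arrays of low weight, 1 after quantile normalization and 0 with the 75th percentile. With the animal as a random block it was 7, with Psmb4, Psmd1 and Psmd3 added (adjusted p of 0.0470, 0.0386 and 0.0420), and Psmb10 was called too (adjusted p = 0.0479). With the number as a fixed block Psmd1 was added (adjusted p = 0.0493).

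Of the proteolytic pairs, the inducible Psmb8 rose in quadriceps and the constitutive Psmb5, which it replaces, in soleus. Psmb8 (beta5i), the counterpart of Psmb5, read 5.78, 5.89 and 6.05 in quadriceps controls and 6.12, 6.47 and 6.54 in quadriceps cKO. These groups were apart, and the gene rose by 0.49 (SE 0.09, 1.40-fold, adjusted p = 8.09e-05), whereas Psmb5 changed by -0.12 (SE 0.10, adjusted p = 0.335) in that muscle. In soleus Psmb8 read 5.71, 5.75 and 6.12 in controls and 5.66, 5.72 and 6.05 in cKO, overlapping throughout, with a change of -0.05 (SE 0.09, adjusted p = 0.741), whereas Psmb5 rose by 0.32 (SE 0.10, adjusted p = 0.015). Psmb8 was the 1 proteasome gene with a called difference in the other direction, -0.54 between the soleus and quadriceps changes (SE 0.13, adjusted p = 0.00522). Between the cKO muscles it was lower in soleus (-0.60), and between controls it was not called (-0.06, adjusted p = 0.613).

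The other proteolytic pairs differed less. Psmb9 (beta1i), the counterpart of Psmb6, was called in neither muscle (0.15, adjusted p = 0.248 in quadriceps and -0.03, adjusted p = 0.86 in soleus). Its quadriceps cKO arrays read 6.09, 6.18 and 6.83, the highest being array 3, and its controls 5.89, 6.15 and 6.34. Psmb6 (beta1) changed by 0.08 in quadriceps (adjusted p = 0.427) and rose by 0.42 in soleus (SE 0.08, adjusted p = 0.000202), from 9.74, 9.79 and 10.13 to 10.07, 10.25 and 10.43, with an overlap through soleus control 1. Psmb10 (beta2i), the counterpart of Psmb7, changed by 0.20 in quadriceps (adjusted p = 0.0819) and rose by 0.28 in soleus (SE 0.09, adjusted p = 0.0281). It read 6.47, 6.67 and 6.78 in soleus controls and 6.87, 6.89 and 7.004 in soleus cKO, which did not overlap. This call was lost without soleus control 2 or 3, without soleus cKO 5, and under the 75th percentile or quantile scaling. Psmb7 (beta2) changed by -0.12 in quadriceps (adjusted p = 0.194) and rose by 0.25 in soleus (SE 0.07, adjusted p = 0.0125). The thymic subunit Psmb11 (beta5t) stayed between 3.94 and 4.64 on all arrays, close to the dim limits of 3.51 to 3.72, and was not called in any comparison.

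Of the 3 assembly chaperones of the regulatory particle, 2 rose in both muscles, where 22.3% (quadriceps) and 13.2% (soleus) of all genes rose. Psmd5 read 6.90, 7.77 and 7.97 in quadriceps controls and 8.10, 8.31 and 8.50 in cKO, and 7.64, 7.94 and 8.05 in soleus controls against 8.27, 8.59 and 8.72 in cKO. It was apart in both muscles and rose by 0.63 in quadriceps (SE 0.13, adjusted p = 0.000369) and 0.64 in soleus (SE 0.13, adjusted p = 0.000585). The difference between these changes was 0.00 (SE 0.18, adjusted p = 0.993). Psmd10 (gankyrin) rose by 0.46 in quadriceps (SE 0.09, adjusted p = 0.000197), from 6.26, 6.64 and 6.75 to 6.95, 7.04 and 7.202 with no overlap. In soleus it rose by 0.25 (SE 0.09, adjusted p = 0.049), from 5.99, 6.28 and 6.43 to 6.33, 6.47 and 6.77 with overlap, and lost this call in 23 of 37 settings, among them the animal as a random block (adjusted p = 0.0505). Psmd10 was lower in soleus cKO than in quadriceps cKO (-0.56). The third chaperone, Psmd9, was called in neither muscle (-0.14 and -0.09).

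Of the 4 activators, 1 rose and 2 fell in quadriceps, where 22.3% of all genes were called higher and 17.7% lower. Psme1 and Psme2 encode the alpha and beta chains of PA28, an interferon-inducible cap of the core particle. Psme1 read 8.21, 8.40 and 8.54 in quadriceps controls and 8.01, 8.11 and 8.25 in cKO, an overlap of the extremes, and fell by 0.27 (SE 0.07, adjusted p = 0.00191). Psme2 went the other way, from 6.81, 7.06 and 7.21 to 7.14, 7.37 and 7.53, and rose by 0.32 (SE 0.10, adjusted p = 0.0179). The mouse genome holds a close copy of Psme2, Psme2b, so this signal may be shared, and a probe set naming both was left out. Psme4 (PA200), a nuclear activator linked to histone turnover, read 9.64, 10.19 and 10.42 in quadriceps controls and 9.61, 9.78 and 9.90 in cKO, where the lowest control was quadriceps control 4. It fell by 0.37 (SE 0.10, adjusted p = 0.0043). Psme3 (PA28 gamma), a nuclear activator, changed by 0.10 in quadriceps (adjusted p = 0.227) and 0.09 in soleus (adjusted p = 0.379), with all arrays between 8.54 and 8.91.

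In soleus none of the 4 activators was called by limma, and none had an unadjusted p under 0.05 (0 of 4). Psme1 read 8.16, 8.32 and 8.42 in soleus controls and 8.10, 8.18 and 8.27 in cKO, a change of -0.12 (adjusted p = 0.207). Psme2 changed by 0.02 (6.88, 7.18 and 7.58 against 6.89, 7.22 and 7.38) and Psme4 by 0.02 (9.47, 9.71 and 9.85 against 9.59, 9.68 and 9.98). The groups overlapped for all of them. A difference between the changes in the 2 muscles was called for no activator by limma (1 higher and 0 lower at an unadjusted p under 0.05), with Psme4 at 0.39 (SE 0.14, adjusted p = 0.0696) and Psme2 at -0.30 (SE 0.15, adjusted p = 0.194). The Psme4 difference was called in 6 of 36 settings, among them the replicate number as a fixed block (adjusted p = 0.0432), the animal as a random block (adjusted p = 0.0314), and the fits without quadriceps control 4 (0.49) and without the 3 arrays of low weight (0.40). Its adjusted p lay between 0.00446 and 0.125 over the settings. Psme4 was lower in soleus than in quadriceps controls (-0.45).

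Of the 3 further genes with such symbols, 1 was called in a cKO comparison. Psmc3ip, a meiotic recombination factor, changed by -0.02 in each muscle, and Psme3ip1, which binds PA28 gamma, by 0.09 in quadriceps and 0.14 in soleus, none of them called. Psme3ip1 was lower in soleus than in quadriceps, with a difference of -0.24 in controls (adjusted p = 0.0105) and -0.19 in cKO (adjusted p = 0.0464), and lost the cKO call in 21 of 37 settings, among them the fixed block (adjusted p = 0.0572). Psma8, an alpha subunit of the testis, read 3.74, 3.95 and 4.22 in soleus controls and 3.58, 3.68 and 3.87 in cKO and fell by 0.28 (SE 0.09, adjusted p = 0.0274), with groups that overlapped. It lay above the dim limit on 4 of 6 soleus cKO arrays, so this change is between levels at the edge of detection, and its call was lost without soleus control 1 or 3 and without soleus cKO 5 or 6.

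Other genes of the pathway were counted from lists of genes without these symbols. Beside these counts, 22.3% of all genes were called higher and 17.7% lower in quadriceps, and 13.2% and 9.94% in soleus. For the difference between muscles these shares were 4.89% and 7.39%. Of 5 further assembly factors, Psmg4 rose in quadriceps (0.52, adjusted p = 0.000295) and Pomp, which matures the core particle, in soleus (0.34, adjusted p = 0.00446). Neither was called in the other muscle. There Psmg4 had means of 5.30 in soleus controls and 5.57 in soleus cKO, and Pomp 8.92 and 9.06 in quadriceps. The difference between muscles was called for 0 of the 5. Of 14 associated proteins 5 fell in quadriceps, where the others were not called: Ecpas, a scaffold that binds the proteasome (-0.78, adjusted p = 2.01e-07), Zfand5 (-0.42), the deubiquitinating enzyme Uchl5 (-0.42), the shuttle Ubqln4 (-0.32) and the small lid subunit Sem1 (-0.45). In soleus Zfand5 alone fell, by 0.27. Regulators and factors that extract substrates from the endoplasmic reticulum rose in 5 of 10 in each muscle, and the others were not called. Derl1 rose by 0.52 in quadriceps and 0.56 in soleus, Sel1l by 0.37 and 0.29, and Nploc4 by 0.32 and 0.43. Nfe2l1, a transcription factor of proteasome subunit genes, rose by 0.33 in quadriceps (adjusted p = 0.00661), and Vcp, the segregase that hands over ubiquitinated proteins, by 0.44 in soleus (adjusted p = 0.000408). In soleus the mean of Nfe2l1 was 10.01 in controls and 10.14 in cKO, and in quadriceps that of Vcp was 10.34 and 10.53. A difference between the muscles was called for 0 of these 10 genes. Of the ubiquitin list 2 genes were found, of which the autophagy receptor Sqstm1 rose in soleus (0.37) and differed between the muscles (0.54, adjusted p = 0.00302).

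Genes of antigen presentation and interferon response were called in quadriceps, as Psmb8 was. Of 12 genes, 7 rose there (median 0.33), where 22.3% of all genes were called higher. Among the 7 were Irf7 (0.91, adjusted p = 5.04e-05), Ifit1 (1.45, adjusted p = 0.000138), the chaperone Tapbp (0.37) and the peptide transporter Tap1 (0.48). In soleus Tapbp rose (0.23) and Erap1 fell (-0.21), with a median of -0.05 over the list. The difference between muscles was called lower for Ifit1 (-1.62), Irf7 (-0.86) and Ifit3 (-1.17), and for 7.39% of all genes.

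Markers of cell and fibre types moved with these groups as well. Of all genes, 22.3% were called higher and 17.7% lower in quadriceps, and 13.2% and 9.94% in soleus. Macrophage markers rose in 7 of 9 in each muscle, with summed intensities of 844 to 1361 in quadriceps controls, 1587 to 1902 in quadriceps cKO, 765 to 994 in soleus controls and 1098 to 1644 in soleus cKO. Satellite cell and regenerating fibre markers rose in 6 of 6 in quadriceps and 4 of 6 in soleus, with sums of 450.2 to 640.4, 3110 to 5348, 447 to 1389 and 3147 to 4888 in the same order. Fast fibre markers fell in 3 of 6 in quadriceps and 6 of 6 in soleus (sums of 37401 to 39441, 28869 to 33421, 15896 to 25722 and 9842 to 13799). Slow fibre markers rose in 6 of 6 in quadriceps, and in soleus 2 rose and 1 fell (2329 to 6909, 11747 to 17257, 21424 to 30661 and 29520 to 30195). Fibroblast markers rose in 4 and 3 of 5 (5412 to 8745, 8026 to 9758, 6583 to 7743 and 6046 to 8314), and endothelial markers fell in 4 of 5 in soleus (1492 to 2650, 1382 to 1921, 2000 to 3163 and 1451 to 1774). The part of these cell types in the proteasome changes was not tested. Of 7 lymphocyte markers found, the 4 kept were not called, with changes between -0.23 and 0.10.

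The promoters of 4 genes are shown because their transcripts carried the contrasts above: Psmd4 had the largest difference between muscles, Psmb5 and Psmb6 are proteolytic subunits that rose in soleus, and Psmb8 rose in quadriceps alone. Each is the 250 bases before the transcript start in RefSeq on GRCm38.p6, the assembly that mm10 names, 5′ to 3′, with matches on either strand to TGACNNNGC (the antioxidant response element) or to an interferon-type element (GAAA, any 2 bases, GAAA) in capitals. They lie on chromosome 14 for Psmb5 (chr14:54617996-54618245, minus strand), 11 for Psmb6 (chr11:70525107-70525356, plus), 3 for Psmd4 (chr3:95042615-95042864, minus) and 17 for Psmb8 (chr17:34197945-34198194, plus). The start used for Psmb6 lies inside the gene as the RefSeq gene table gives it, from position 70525324.
Psmb5: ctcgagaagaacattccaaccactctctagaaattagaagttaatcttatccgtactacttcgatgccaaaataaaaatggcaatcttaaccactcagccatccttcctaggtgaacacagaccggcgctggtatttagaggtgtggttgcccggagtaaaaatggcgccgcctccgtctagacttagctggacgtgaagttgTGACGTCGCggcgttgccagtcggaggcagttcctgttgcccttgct
Psmb6: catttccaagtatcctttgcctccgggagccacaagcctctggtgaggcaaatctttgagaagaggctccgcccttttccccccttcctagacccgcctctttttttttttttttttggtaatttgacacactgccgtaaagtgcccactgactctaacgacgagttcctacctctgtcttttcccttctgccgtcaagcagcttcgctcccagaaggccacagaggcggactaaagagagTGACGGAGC
Psmd4: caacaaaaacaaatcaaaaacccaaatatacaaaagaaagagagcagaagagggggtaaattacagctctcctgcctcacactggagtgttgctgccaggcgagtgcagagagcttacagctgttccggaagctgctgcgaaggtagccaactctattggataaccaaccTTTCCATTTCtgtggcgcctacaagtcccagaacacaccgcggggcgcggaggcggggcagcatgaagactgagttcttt
Psmb8: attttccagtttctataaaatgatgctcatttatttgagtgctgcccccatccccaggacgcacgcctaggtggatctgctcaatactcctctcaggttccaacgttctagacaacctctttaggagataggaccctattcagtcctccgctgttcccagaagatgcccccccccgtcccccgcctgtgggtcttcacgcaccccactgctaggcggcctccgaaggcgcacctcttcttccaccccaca

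The capitals in Psmb5 and Psmb6 match TGACNNNGC, from base -47 and base -9 before the start, those in Psmd4 match the interferon-type element on the other strand from base -80, and the Psmb8 stretch holds neither. Promoter windows of 250 bases before and 50 after the start were found for 38 of the 45 genes, for 4 of them from 2 starts. TGACNNNGC occurred in 6 of the 38 (15.8%), which were Psmb5, Psmb6, Psmc6, Psmd12, Psmd9 and Psme4, and in 14% of 27025 genes of the table. Of the constitutive subunits 4 of 25 held it. The CCAAT box occurred in 16 of 38 (42.1%) and in 41.1% of all genes. The interferon-type element occurred in 4 of 38 (10.5%), which were Psmb3, Psmd4, Psmd9 and Psme1, and in 3.99% of all genes. These matches describe letters in the windows and say nothing about binding.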

How the data were processed

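RNA of 24 muscle samples was hybridised to Affymetrix arrays, which limits the precision by the number of arrays: the median standard error of a log2 change was 0.10 for cKO against control and 0.14 for the difference of these changes. The values are the intensities that the authors deposited, on a linear scale from 1.76 to 10075. The submitters' processing notes name Affymetrix Expression Console, RMA and the build mm10. Their versions and settings, and any scan batches, were not stated in the sources used here. They were turned to log2.

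Of 35557 probe sets, 21789 had 1 symbol, and 1621 with several were left out. The probe set with the highest mean stood for each of 19938 genes, and genes above the array's 30th percentile on at least 6 arrays were kept. Groups came from the titles. One limma model of 4 group means (R 4.3.3, limma 3.58.1, 20 residual degrees of freedom) gave 5 two-sided comparisons, adjusted by Benjamini-Hochberg over 15999 genes. The code was tried on simulated independent values with equal spread on all arrays. That trial cannot speak for correlated genes or arrays of unequal quality, as in these data. The labels number the samples 1 to 6 in each group. Quadriceps and soleus of 1 genotype and number deviated together (r of 0.155 to 0.450, all 12 pairs above 0.1) and were taken as 1 animal in the blocked fits. In each genotype 6 of 6 quadriceps arrays correlated best with the soleus array of their own number. For cKO number 4 (r of 0.216) the labels give an age of 40 days for quadriceps and 41 days for soleus. They do not bear out that this pair is 1 animal, and the animal block rests on the correlations alone. Between control and cKO arrays of 1 number, r was -0.147 to 0.169 in quadriceps, where 2 of 6 numbers correlated best with their own. In soleus r was 0.0408 to 0.316, and 4 of 6 numbers did so. What the genotypes share by number was not tested.

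The proteasome members, the lists of other genes and the motifs were chosen with earlier results of these data known, so no test was made over a list. Full values are given for up to 5 called members in each direction of a cKO comparison or of their difference (4 between muscles), the proteolytic pairs and the activators, and changes for up to 4 genes of each other list, by smallest p. Sem1, Nploc4 in quadriceps, Sel1l in soleus, the list genes named for the difference between muscles, and members named with a change alone fall outside this rule and were named after their values were seen. Of the listed genes, 15 were not found among genes with 1 symbol. Promoters came from RefSeq tables of GRCm38.p6.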

Additional observations from a re-analysis of the deposited data

Results flagged for a closer look

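Of 180 sets of 6 arrays (45 genes in 4 groups), 19 held an array far from the others by Dixon's criterion, which chance gives for about 1 in 20. Quadriceps control 4 was such an array in 8 genes. It was the lowest of its group for Psma1 (8.95, next 9.47), Psma4 (9.28, next 10.08), Psmd1 (9.57, next 10.08), Psmd7 (9.21, next 9.89), Psmd12 (8.95, next 9.28), Psmd5 (6.90, next 7.604) and Psme4 (9.64, next 10.16), and the highest for Psma2 (8.84, next 8.68). Soleus control 1 was the highest of its group for Psmb6 (10.13), Psmb9 (6.41), Psmc4 (8.16) and Psmd8 (9.35). Both arrays were among the 3 of low weight.

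The remaining arrays far from their groups were scattered. Among soleus controls, array 6 was high for Psma4 (9.998) and array 2 for Psmc2 (8.70). Among soleus cKO, array 4 was low for Psma6 (8.99) and Psmd9 (6.15), and array 2 was low for Psmc2 (8.76) and high for Psmb11 (4.50). In quadriceps cKO, array 3 was high for Psmb9 (6.83).

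The change in cKO differed between the muscles, by limma's test of the difference, for 15 genes. The soleus change exceeded the quadriceps change for Psmd4 by 0.66, Psmd8 by 0.52, Psmc4 by 0.52, Psmb5 by 0.44, Psmc1 by 0.43, Psmd6 by 0.43, Psmc5 by 0.42, Psma7 by 0.41, Psmd11 by 0.41, Psmc2 by 0.38, Psmb7 by 0.36, Psmc3 by 0.34, Psmb6 by 0.34 and Psma3 by 0.34, with adjusted p between 0.00178 (Psmd8) and 0.0436 (Psmb6). Psmb8 had a difference of -0.54 (adjusted p = 0.00522).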

How the results depend on the processing

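Under 37 settings (36 for the difference between muscles), 10 of 16 called proteasome genes kept their calls throughout in quadriceps, 21 of 26 in soleus, 11 of 15 for the difference, 26 of 29 between controls and 3 of 9 between cKO muscles. No called gene turned its direction under any setting. The cause of the moves below was not tested, except that a filter above the dim limit on all arrays removes Psma8 and so leaves 0 lower in soleus. With the replicate block, as a fixed number or as a random animal, the counts over the 45 genes kept within 1.5 times (quadriceps 12 higher as reported, soleus 25), and the calls that a block changed were those of Psma7, Psma4, Psmd10, Psmb2, Psmd2, Psmd3, Psme4, Psmb4, Psmb10, Psmd1 and Psme3ip1, the Psme4 difference by either block. Leaving out the 3 arrays of low weight was chosen after seeing the data. Signal near the dim limit restricts Psma8 and Psmb11.

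Arrays centred on their 75th percentiles gave 6 higher and 9 lower in quadriceps (median 0.0108) and 3 higher and 2 lower between cKO muscles (median -0.00851). Centring on medians gave a median of -0.45 between controls and 14 lower (median -0.17) between cKO muscles. A further quantile normalization gave 2 higher between controls (median -0.26) and 3 higher and 3 lower (median -0.0492) between cKO muscles. Quality weights gave 24 higher for the difference (median 0.30), a median of -0.42 between controls, and 2 higher and 15 lower between cKO muscles. Without the 3 arrays of low weight there were 24 higher for the difference and 2 higher between cKO muscles. With only the arrays compared, 2 were higher and 14 lower between cKO muscles. Leaving out single arrays gave 7 to 13 higher in quadriceps (7 without cKO 5), 0 to 1 lower in soleus, 0 to 1 higher between controls (1 without quadriceps control 4), and 1 to 2 higher and 5 to 10 lower between cKO muscles (5 without quadriceps cKO 5).

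Changes turned sign under at least 1 setting for 6 genes in quadriceps, 6 in soleus, 7 for the difference, 7 between controls and 17 between cKO muscles, none of them called as reported. Among these, Psmc1 in quadriceps ranged from -0.0756 to 0.0524 and the difference of Psmd5 from -0.0581 to 0.156. Psmb6 in quadriceps was -0.00207 with the 75th percentile. In soleus, Psmb8 was 0.00313 with weights and 0.00822 without the 3 arrays (single arrays out, -0.105 to 0.00822), Psmb9 was 0.00373 with medians, 0.0146 with weights and 0.00833 without the 3 (-0.0644 to 0.0250), Psme2 was -0.0186 with the 75th percentile and -0.0188 with quantiles (-0.0414 to 0.0986), and Psme4 was -0.0193, -0.0534, -0.0218 and -0.0292 with the 75th percentile, quantiles, weights and without the 3 (-0.0358 to 0.0473). For the difference, Psme3 was 0.0297, 0.0335 and 0.0140 with medians, the 75th percentile and without the 3 (-0.0477 to 0.0151).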
